A study of Mus musculus with 6 samples.

Results

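Probes named only by an Ensembl transcript, with no gene symbol or RefSeq record in the array's own annotation, were compared between the kidney cortex of wild-type (WT) mice and of mice lacking the C3a receptor (C3aR-/-). They were taken by name from the array files: transcript spots whose gene name and systematic name both begin with the Ensembl mouse transcript prefix and whose description does not hold the word immunoglobulin. This gave 2019 probes for 1963 transcripts, of 56605 transcript probes on the array. Of these, 1027 probes for 1002 transcripts passed the test for signal, which asked that every one of the 3 arrays of a genotype, WT or C3aR-/-, place the probe well above its background. Another 224 Ensembl-only probes carried the word immunoglobulin and were left out.

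RNA of the renal cortex of male mice was hybridised to 6 one-colour Agilent arrays. The WT control group (3 arrays) was C57BL/6, and so was the C3aR-/- control group (3 arrays), which in addition lacked the receptor of the complement fragment C3a. Per the labels, the control arm was 8 weeks old when placed on normal chow with 10% of its calories from fat, received vehicle in place of streptozotocin after 4 weeks, and was killed 20 weeks after induction. The labels give neither the deleted part of the gene nor which animal gave which sample, so the p-values reflect only how far these samples scatter. The study's diabetic mice were not analysed here.

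Between 33530 and 35147 of the 59305 transcript spots of an array (56.5% to 59.3%) had signal well above background, and 0 were saturated. C3aR-/- replicate 1 had 145 non-uniform spots against 2 to 8 on each of the other arrays. Slide and genotype coincided, so the effects of slide and genotype cannot be told apart in any comparison below. Kidney markers were present on every array: the 8 markers of the proximal tubule had a summed level of 709 to 774 in WT and 833 to 875 in C3aR-/- cortex, relative to the array's 75th percentile. The 4 collecting duct markers summed to 23.6 to 25.1 and 31.7 to 37.8 (2 rose), and the 4 endothelial markers to 21.3 to 22.6 and 16.29 to 19.04 (1 rose, 1 fell). Of 5 NK cell markers 2 were tested, Klrb1c and Klrk1, and both fell, with sums over the list of 0.199 to 0.208 and 0.163 to 0.172. Those not tested went both ways. Ncr1, well above background on no array, differed by 1.59, Prf1 by 0.15 and Gzmb by -0.12 on the log2 scale. The part of these cell types in the changes below was not tested. Values below are log2 signal relative to that percentile, and a log2 change is C3aR-/- minus WT.

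A probe known only by an Ensembl transcript usually stands for a locus that curated catalogues treat as predicted, as a pseudogene or as a non-coding RNA. A processed pseudogene is a copy of a spliced messenger RNA that was written back into the genome. Such copies are most abundant for highly expressed housekeeping genes, those of ribosomal proteins above all, and most are thought to yield little protein. A short probe for a pseudogene can be almost identical to the parent gene or to other copies of it, so its signal can hold RNA of several loci.

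The descriptions followed that pattern. Among the 1027 tested probes, 665 were described as a predicted gene, 129 as a pseudogene, of a named gene or a predicted one, 76 as a ribosomal protein or its pseudogene, 45 as a RIKEN cDNA and 19 as a segment of a T cell receptor. Another 61 carried the name of some other protein and 11 had no description. The symbols of 610 tested probes were found in the RefSeq table of assembly GRCm38.p6, which lists 554 of those as pseudogenes, 7 as transcribed pseudogenes, 24 as protein coding and 19 as long non-coding RNA. A symbol was formed only for predicted genes, predicted pseudogenes and RIKEN cDNAs, so probes described otherwise stayed unmatched. Of the 2019 probes, 667 (33.0%) shared 30 or more identical bases with another probe of the array, of the same or another name. So did 468 of the 1027 tested (45.6%).

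The sequences of 6 pairs are shown, as examples, chosen after their values were seen, of closely matching probes that changed alike or apart. Each is the 60-base probe as the array files print it, and the capitals mark the bases at which the probes of a pair differ within their ungapped alignment. Gm4877 (mm9, chr6:42469593-42469652, minus strand) and Gm5147 (chr1:55176996-55177055, minus strand) matched at 53 of 60 aligned bases.
Gm4877: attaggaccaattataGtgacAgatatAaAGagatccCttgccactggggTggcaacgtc
Gm5147: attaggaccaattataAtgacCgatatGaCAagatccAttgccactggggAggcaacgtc
Gm8292 (chr1:55392519-55392578, plus strand) matched the probe of Rps24, a ribosomal protein gene (chr14:25311190-25312666, plus strand), at 45 of 48 aligned bases.
Gm8292: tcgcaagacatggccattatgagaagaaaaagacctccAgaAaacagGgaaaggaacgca
Rps24: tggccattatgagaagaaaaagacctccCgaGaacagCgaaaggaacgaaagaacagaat
A pseudogene of Polr2k (chr11:95622920-95622979, plus strand) matched the probe of Polr2k, which encodes a small subunit shared by RNA polymerases (chr15:36105211-36106547, plus strand), at 42 of 44 aligned bases.
Polr2k pseudogene: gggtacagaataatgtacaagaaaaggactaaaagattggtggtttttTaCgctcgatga
Polr2k: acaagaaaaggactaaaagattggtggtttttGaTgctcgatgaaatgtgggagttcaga
Gm6003 (chr7:33950575-33950634, plus strand) and Gm8112 (chr10:81156528-81156587, minus strand) matched at 50 of 55 aligned bases.
Gm6003: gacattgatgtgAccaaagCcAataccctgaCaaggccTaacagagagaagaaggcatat
Gm8112: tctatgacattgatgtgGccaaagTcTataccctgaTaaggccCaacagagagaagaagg
Gm5706 (chr1:184322722-184322781, minus strand) and Gm8941 (chr1:152984797-152984856, plus strand) matched at 45 of 53 aligned bases.
Gm5706: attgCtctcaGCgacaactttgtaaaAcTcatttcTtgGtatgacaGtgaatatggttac
Gm8941: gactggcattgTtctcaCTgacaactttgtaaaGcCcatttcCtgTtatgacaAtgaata
Gm9252 (chr7:48921961-48922020, minus strand) and Gm13337 (chr2:21990925-21990984, plus strand) matched at 44 of 49 aligned bases.
Gm9252: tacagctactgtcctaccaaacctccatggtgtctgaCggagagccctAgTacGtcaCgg
Gm13337: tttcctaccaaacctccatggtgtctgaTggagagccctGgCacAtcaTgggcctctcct
The probes of Gm13904 (chr2:106851734-106851793, plus strand) and Gm12634 (chr4:90036250-90036309, plus strand) are shown alone, as those of the largest falls among probes measured on all 6 arrays. That of Gm12634 belongs to a group of 16 linked by shared sequence, given below.
Gm13904: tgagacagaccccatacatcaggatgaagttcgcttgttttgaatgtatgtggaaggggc
Gm12634: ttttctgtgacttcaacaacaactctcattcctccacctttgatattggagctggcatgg

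Ensembl-only transcripts fell more often than they rose in C3aR-/- cortex. At a limma adjusted p under 0.05, 145 probes fell and 73 rose, together 21.2% of the 1027 tested, against a background of 11.7% of all 30930 probes tested. The share that rose, 7.11%, lay near the background of 6.18%, while the share that fell, 14.1%, stood against a background of 5.49%. Falls of at least 2-fold numbered 52, or 5.06% against 0.928% of all probes, and rises of at least 2-fold numbered 3, against 0.521% of all probes. In either direction that is 5.36% of the Ensembl-only probes, beside 1.45% of all. The median log2 change was 0.01 over the Ensembl-only probes and 0.03 over all probes, so both medians lay near 0. Neither count of direction was steady with an array left out: 69 to 121 probes fell and 4 to 26 rose, depending on the array. The same 64 falls and 3 rises were called with each array left out in turn.

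Other probes for RNA outside the coding RefSeq set gave the following shares. Of 1735 probes for long intergenic RNA, 7.67% fell and 6.86% rose, and of 828 RefSeq non-coding probes 8.82% fell and 4.83% rose. Of 20414 RefSeq coding probes, 4.04% fell and 6.56% rose. The share of falls was far higher among the 66 tested Ensembl-only probes with the word immunoglobulin, of which 65.2% fell and 0 rose. The genotypes did not overlap in 51.6% of the Ensembl-only probes, beside 39.6% of all probes. The difference between these kinds of probe was not tested.

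**Figure D1:**
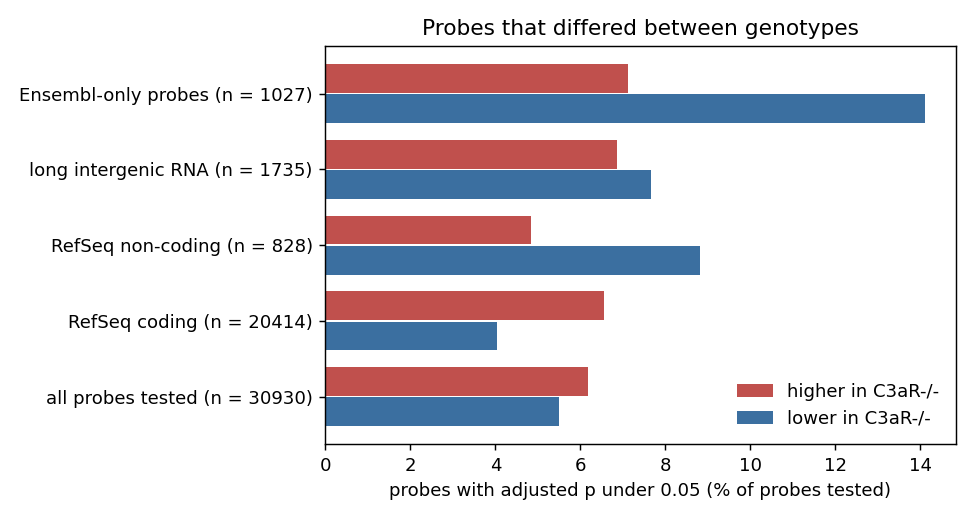
Share of tested probes with an adjusted p under 0.05, in percent (horizontal axis), for 5 sets of probes (vertical axis, with the number tested), higher in red and lower in blue. Of the 5 sets, Ensembl-only probes without immunoglobulins have the longest blue bar, 14.1%, beside 4.04% of RefSeq coding probes. Their red bar, 7.11%, is close to that of all probes, 6.18%. Ensembl-only probes with the word immunoglobulin are not shown.

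The filter on signal decided part of the largest differences. Of the 1027 probes, 951 passed in both genotypes, 26 in WT alone and 50 in C3aR-/- cortex alone. Among the 951 measured on all 6 arrays, 137 fell and 65 rose, 21.2% against 11.3% of all probes measured on all 6. The shares were 14.4% lower against 5.45% and 6.83% higher against 5.87%. In that set 44 falls and 0 rises reached 2-fold at an adjusted p under 0.05. The 8 falls that passed in WT alone and the 8 rises that passed in C3aR-/- cortex alone had to differ to some degree. Those of them named below are therefore given as values, and the rest are not listed. Of the 989 probes under the filter, 836 were well above background on none of the 6 arrays, and a further 3 probes had an array without a usable spot.

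The largest falls on all 6 arrays were mostly of predicted genes that RefSeq lists as pseudogenes. Gm28344 was not found in its table, and the ribosomal L9 and DPH3B pseudogenes, known here by description, were not looked up by symbol. Gm13904, a pseudogene on chromosome 2, had levels of -3.02, -3.18 and -2.65 in WT replicates 1 to 3 and of -4.84, -5.02 and -5.05 in C3aR-/- replicates 1 to 3. Every C3aR-/- array lay below every WT array, and the log2 change was -2.02 (SE 0.15, limma adjusted p = 0.00344), a 4.06-fold fall. Gm12634, a pseudogene on chromosome 4, had levels of 0.84, 0.76 and 0.81 in WT and of -0.96, -1.05 and -0.92 in C3aR-/- arrays. The spread within each genotype was small beside the gap, with SDs of 0.04 and 0.07 (n = 3 each) and a log2 change of -1.78 (SE 0.07, limma adjusted p = 0.00194). Gm3508, a pseudogene on chromosome 1, stood at 0.93, 1.08 and 0.83 in WT and at -0.76, -0.73 and -0.62 in C3aR-/- cortex, a log2 change of -1.65 (SE 0.09, limma adjusted p = 0.00238). Its genotypes did not overlap either.

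Ribosomal and proteasomal copies were among them. Ribosomal protein L9, pseudogene 3 (mm9, chr11:53315106-53315165) had levels of 0.87, 0.83 and 0.73 in WT and of -0.77, -0.88 and -0.89 in C3aR-/- arrays. This copy of a gene for a protein of the large ribosomal subunit fell by 1.66 on the log2 scale (SE 0.07, limma adjusted p = 0.00226). A pseudogene of the proteasome subunit beta type 6 (chrX:7527501-7527560) had levels of -3.04, -2.96 and -3.11 in WT and of -4.51, -4.53 and -4.65 in C3aR-/- arrays, a log2 change of -1.53 (SE 0.07, limma adjusted p = 0.00238). In both the genotypes were apart by many times their SDs. Further falls of this size were those of Gm28344 (-1.68), Gm17190 (-1.66), Gm14504 (-1.64) and Gm29138 (-1.64), all predicted genes. The pseudogene of DPH3B, a copy of a gene of the diphthamide pathway, fell by 1.56 with a wide spread in C3aR-/- cortex (SD 0.61, n = 3). Its call was lost in 5 of the 6 fits with an array left out, at adjusted p-values up to 0.0947.

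Some falls were brighter and smaller. Ribosomal protein L31, pseudogene 21 stood at 3.89, 4.01 and 3.93 in WT and at 3.16, 3.03 and 3.13 in C3aR-/- cortex, a log2 change of -0.84 (SE 0.07, limma adjusted p = 0.00502). Gm7189, a predicted pseudogene on the X chromosome, stood at 2.05, 2.08 and 2.08 in WT and at 1.055, 1.102 and 1.062 in C3aR-/- cortex. Its log2 change of -0.998 (SE 0.06, limma adjusted p = 0.00248) came with SDs of 0.02 and 0.03 (n = 3 each). Transcripts without a description took part too: that of ENSMUST00000196011 on chromosome 3 fell by 1.29, from -0.01, 0.11 and 0.00 in WT to -0.97, -1.37 and -1.42 in C3aR-/- arrays. Among probes with the name of a coding gene, that of transcription elongation factor B polypeptide 1, elongin C, fell by 0.59 (limma adjusted p = 0.0111). The RefSeq probe of the same gene, Tceb1, 4631 bases away on the same strand, had a log2 change of 0.06 (limma adjusted p = 0.589).

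Rises were smaller than falls. The largest on all 6 arrays was that of keratin associated protein 19-9A, a hair shaft protein by name (mm9, chr16:88924385-88924444), with levels of -2.42, -2.69 and -2.44 in WT and of -1.54, -1.50 and -1.56 in C3aR-/- arrays. The log2 change was 0.98 (SE 0.09, limma adjusted p = 0.00651), a 1.98-fold rise without overlap. Gm6783 stood at -2.52, -2.54 and -2.69 in WT and at -1.66, -1.92 and -1.78 in C3aR-/- cortex, a log2 change of 0.80 (SE 0.09, limma adjusted p = 0.0105). Proteolipid protein 2, a membrane protein of the endoplasmic reticulum (chrX:7245070, minus strand), stood at 1.70, 1.73 and 1.65 in WT and at 2.43, 2.25 and 2.24 in C3aR-/- cortex. Its log2 change was 0.61 (SE 0.08, limma adjusted p = 0.0128). These 3 rises kept their call with each array left out. The other 9 of the 12 largest rises, from Gm28802 (0.96) and C030048H21Rik (0.91) to Gm3527 (0.55), lost it with at least 1 array left out, and the adjusted p then reached 0.0608 to 0.128.

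**Figure D2:**
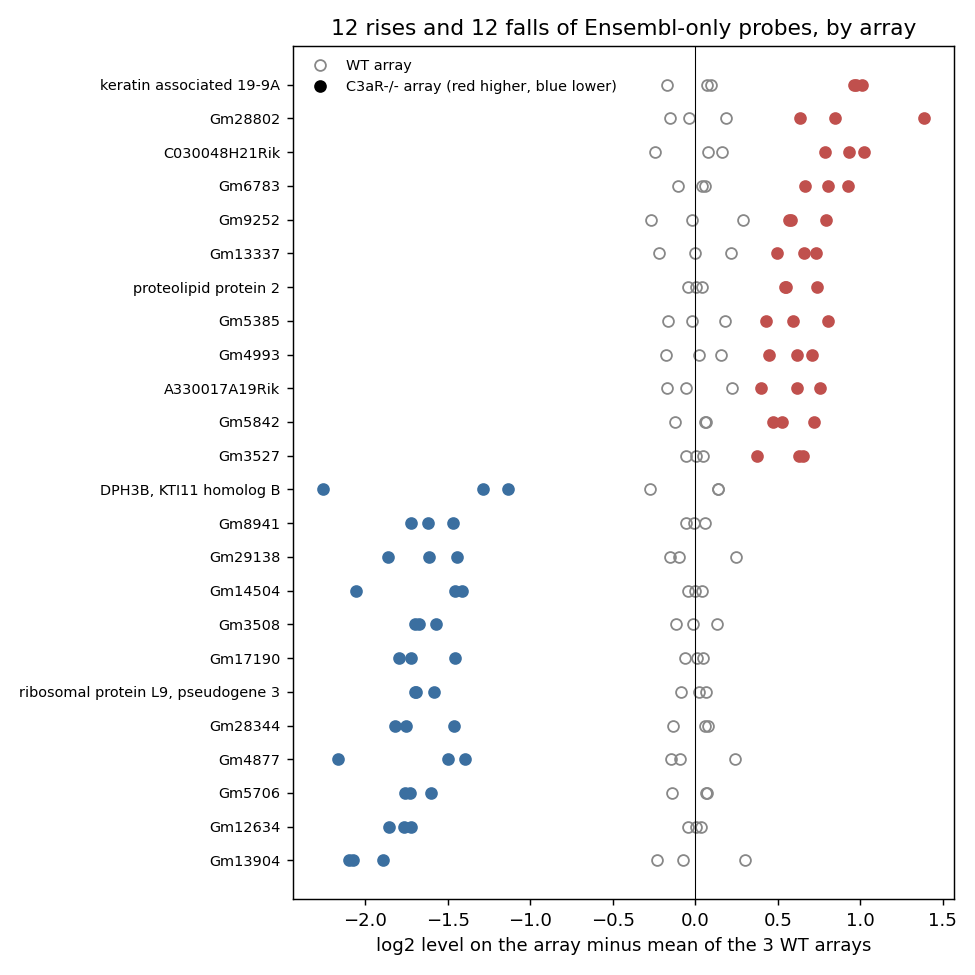
Level on each array minus the mean of the 3 WT arrays, on the log2 scale (horizontal axis), for the 12 largest rises and 12 largest falls among Ensembl-only probes measured on all 6 arrays (vertical axis). Open circles are WT arrays and filled circles C3aR-/- arrays. The falls reach -2.02 on average (Gm13904) and the rises 0.98 (keratin associated protein 19-9A), and the circles of the genotypes do not overlap in any line.

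Probes lost or gained at the edge of detection were few. The bounds that follow compare the brighter genotype with a floor in the dimmer one, which on each array is the lowest signal of any probe well above background or, where higher, the signal of the probe itself. Each of these probes entered the test through the genotype where it was high, so its call is no support of its own. Gm12020 (fitted log2 change -2.94, limma adjusted p = 0.00839) missed the mark for signal, well above background, on all 3 C3aR-/- arrays and was at least 2.36-fold lower there. Gm12221, Gm13888, Gm13665 and Gm6743 were likewise dim there, with bounds of at least 2.37-fold for the first, 2.002-fold for the next, 1.77-fold for Gm13665 and 1.73-fold for Gm6743, all lower. Gm12221 and Gm6743 lost their call in 5 of the 6 fits with an array left out. A pseudogene of the zinc transporter Slc39a1 and Gm12790 were dim in WT and at least 1.40-fold and 1.34-fold higher in C3aR-/- cortex. The first lost its call in all 6 fits with an array left out and Gm12790 in 1.

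Just outside the filter, 34 probes were well above background on 2 of 3 arrays of a genotype, with a median difference of 0.07. The largest differences there were 2.05 for a pseudogene of the Notch pathway factor RBPJ (recombining binding protein suppressor of hairless), 1.98 for T cell receptor beta, variable 12-2 and -2.54 for 4930569F06Rik. They are listed as descriptions only.

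T cell receptor segments, the variable and constant parts that T cells join into their antigen receptor, were called about as often as all probes. Of 110 such probes on the array 19 were tested, and 2 (10.5%) were called, both higher, at a limma adjusted p under 0.05, beside backgrounds of 11.7% in either direction and 5.49% lower. Both had passed the filter through C3aR-/- cortex alone, where they were high, so they had to differ and are given as values. T cell receptor alpha variable 6-6 stood at -7.22, -5.78 and -6.61 in WT, where it was dim on all 3 arrays, and at -4.19, -4.96 and -5.00 in C3aR-/- cortex. It was at least 1.33-fold higher (limma adjusted p = 0.0405), and T cell receptor beta, variable 5, also dim in WT, at least 1.06-fold higher (limma adjusted p = 0.0491). These calls were lost in 5 and 6 of the 6 fits with an array left out. T cell receptor alpha variable 3-4 had the largest lower value, with a log2 change of -1.19 (SE 0.36, limma adjusted p = 0.0845).

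The constant parts, which T cells share, gave the following values. T cell receptor beta, constant region 1 had log2 changes of -0.14 (SE 0.25) and -0.03 (SE 0.19) at its 2 probes. T cell receptor beta, constant 2 had 0.04 (SE 0.26) and -0.33 (SE 0.16), none with an adjusted p under 0.05. Of the 10 T cell marker genes tested 0 changed. Their summed level was 3.63 to 3.79 in WT and 1.87 to 3.49 in C3aR-/- cortex, lower on every C3aR-/- array than on any WT array. The largest part of that sum was Cd247, at 0.97, 1.04 and 0.95 in WT and 0.59, 0.66 and -0.74 in C3aR-/- arrays. Log2 changes were positive for Cd3e, Cd5, Cd8a and Cd8b1 (0.05, 0.07, 0.21 and 0.67). They were negative for Cd3d, Cd3g, Cd247, Cd4, Cd2 and Lck, so the markers did not move as one. Of the B cell and plasma cell markers 3 of 8 tested fell, with sums of 3.53 to 4.78 and 1.14 to 1.26, and Cd79a and Tnfrsf17 were well above background on no array. The part of these cells in the changes of the Ensembl-only probes was not tested. In whole cortex, fewer cells of a type and less RNA per cell cannot be told apart.

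By description, falls were spread over the large classes. Of 665 predicted genes 107 fell (16.1%) and 47 rose, of 129 pseudogenes of named or predicted genes 16 fell (12.4%) and 8 rose, and of 76 ribosomal protein probes 10 fell (13.2%) and 6 rose. Of the 61 probes with another protein name 7 fell (11.5%) and 4 rose, and 0 of them reached 2-fold. Of 45 RIKEN cDNAs 3 fell and 3 rose. Among the loci that RefSeq lists as pseudogenes, 93 of 554 fell (16.8%) and 42 rose (7.58%), and 37 of the 52 falls of at least 2-fold were among them. The 4 probes of the mitochondrial genome, such as Gm28439 (0.30, SE 0.09, limma adjusted p = 0.0849), were all above 0 with 0 called. Of 4 histone probes 0 were called, and of the 9 olfactory, vomeronasal or taste receptors 0.

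Shared sequence was common among the falls. The mark for sharing, 30 identical bases, covers only part of the 60-base probe. Of the 145 probes that fell, 80 (55.2%) shared 30 or more bases with another probe, of the same or another name. The same held for 27 of the 73 that rose (37.0%) and 44.6% of those not called. Counted the other way, 17.1% of the 468 sharing probes and 11.6% of the 559 not sharing fell, so falls were present in both. Falls of at least 2-fold numbered 26 in each set. The comparison was made with probes of the array, so identity to transcripts without a probe is not covered.

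Where a RefSeq coding probe shared sequence with an Ensembl-only probe, it was called at about the share of coding probes in general. Such a partner need not belong to the parent gene: the probe of small G protein signaling modulator 3 was paired with Zbp1. For 185 pairs of an Ensembl-only probe with a tested RefSeq coding probe sharing 30 or more bases, with 76.7% to 100% identity over the aligned bases (median 91.4%), 31 of the Ensembl-only probes fell, and of their partners 0 fell, 2 rose and 29 were not called. Over all RefSeq coding probes 4.04% fell and 6.56% rose. The median log2 change over those 31 pairs was -0.61 for the Ensembl-only probes and 0.04 for the partners. The 31 pairs involve 25 partners, and 17 of the pairs have a ribosomal protein gene or copy as partner, so they are not independent. The change of the member relative to its partner on the same array had a median of -0.71 and ranged from -1.65 to -0.05. Those pairs were taken because the Ensembl-only probe fell, so these values are a description. Over all 185 pairs the log2 changes of member and partner had a Pearson correlation of 0.31 and a Spearman correlation of 0.42, across probes that share arrays and sequence.

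**Figure D3:**
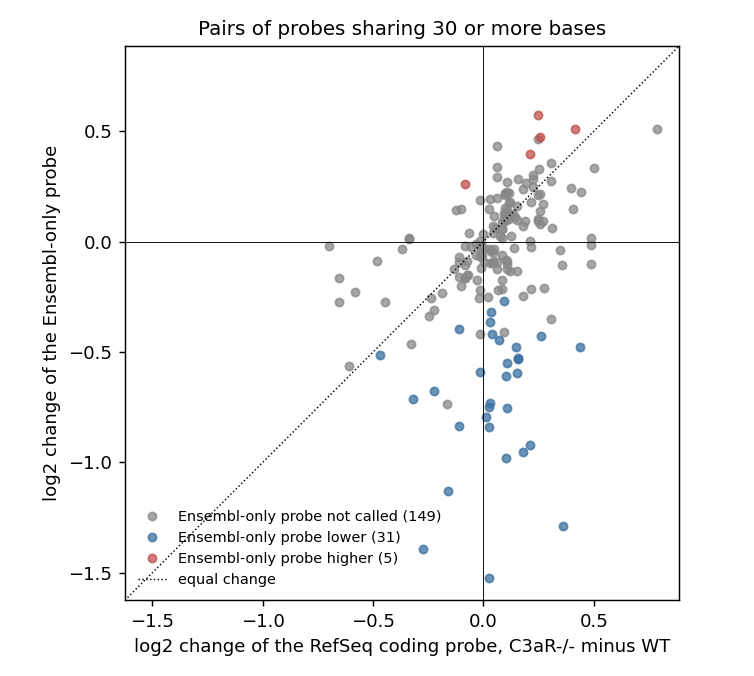
Log2 change of 185 Ensembl-only probes (vertical axis) against that of the RefSeq coding probe sharing 30 or more bases (horizontal axis), with blue for Ensembl-only probes that fell, red for those that rose, grey for the rest and a dotted line where both changed alike. Most of the 31 blue points lie far below that line and near 0 on the horizontal axis, where their partners have a median of 0.04.

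The printed pairs show this at the level of single probes. Gm8292 stood at -0.41, -0.52 and -0.52 in WT and at -1.49, -1.66 and -1.70 in C3aR-/- cortex, a log2 change of -1.13 (SE 0.08, limma adjusted p = 0.00339). The Rps24 probe, which differs from it at 3 of 48 aligned bases, stood at 2.47, 2.35 and 2.43 and at 2.421, 2.357 and 1.999, a log2 change of -0.16 (SE 0.12, limma adjusted p = 0.417). The genotypes overlapped for Rps24 and did not for Gm8292. The change of Gm8292 relative to Rps24 within arrays was -0.97 (SE 0.09). As the pairs were chosen by their values, such differences are given without a test. The Polr2k pseudogene stood at -0.59, -0.50 and -0.61 in WT and at -1.51, -2.54 and -1.83 in C3aR-/- cortex, a log2 change of -1.39 (SE 0.25, limma adjusted p = 0.0276). Polr2k itself was lower on every C3aR-/- array by a smaller amount, with a log2 change of -0.28 (SE 0.07, limma adjusted p = 0.0532), and the change of the pseudogene relative to it was -1.12 (SE 0.27).

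Pseudogenes also parted from related copies. Gm4877 stood at -1.93, -1.54 and -1.88 in WT and at -3.18, -3.95 and -3.28 in C3aR-/- cortex, a log2 change of -1.69 (SE 0.23, limma adjusted p = 0.0142). Gm5147, identical to it at 53 of 60 bases, stood at 3.25, 3.32 and 3.21 and at 3.32, 3.26 and 3.22, a log2 change of 0.01 (SE 0.07, limma adjusted p = 0.94). The arrays of the genotypes were apart for the first and intermixed for the second. The call of Gm4877 was lost without 1 of the 6 arrays, at an adjusted p of 0.0526. Gm6003 fell by 0.85 (SE 0.07, limma adjusted p = 0.00559) while Gm8112 rose by 0.32 (SE 0.06, limma adjusted p = 0.0315), and the change of the first relative to the second was -1.16 (SE 0.04). In this pair both genotypes were separate in both probes, in opposite directions.

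Other pairs had like changes. Gm5706 stood at -1.22, -1.43 and -1.22 in WT and at -3.05, -2.89 and -3.02 in C3aR-/- cortex, and Gm8941 at 2.59, 2.53 and 2.47 and at 1.06, 0.81 and 0.91. Their log2 changes were -1.70 (SE 0.09) and -1.60 (SE 0.09), each with a limma adjusted p of 0.00238, and differed within arrays by -0.09 (SE 0.14). Gm9252 and Gm13337 rose by 0.65 (SE 0.15) and 0.63 (SE 0.13), at limma adjusted p-values of 0.0486 and 0.0354, and differed by 0.02 (SE 0.06). Both of these rises lost their call in 5 of the 6 fits with an array left out, whereas both falls kept it in all 6. The probes of such a pair share sequence, so they are not separate evidence.

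Over all 455 tested Ensembl-only probes with a closest probe of another name, 78 fell, and their closest probes fell in 16, rose in 4 and were not called in 58. Of 26 that rose, the closest probe rose in 6, fell in 1 and was not called in 19. Of 15 sets of 5 or more tested Ensembl-only probes linked by shared sequence, 3 held both falls and rises, 7 falls alone, 2 rises alone and 3 no call. Together 19.1% of their 157 probes fell and 6.37% rose, beside 14.1% and 7.11% of all tested Ensembl-only probes. The largest, of 27 probes with Gapdh as RefSeq partner, held 6 falls and 2 rises, with a median of 0.03. Another with Gapdh as partner, of 16 probes, held 4 falls and 0 rises, with a median of 0.12. Gm12634 was its lowest, at -1.78. In the group of 20 that holds Gm5706, Gm8941 and Gm7189, 5 fell and 0 rose, with log2 changes from -1.70 to 0.23 and a median of 0.07. In the group of 11 that holds Gm4877, 3 fell, with a median of 0.01. In that of 5 led by Gm29486 and ribosomal protein L31 pseudogenes, 3 fell, and the range was -1.52 to 0.15.

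The nearest genes on the chromosome were compared with a background of 4.04% of RefSeq coding probes lower and 6.56% higher. For 92 Ensembl-only probes with a RefSeq coding probe within 10 kb on the same strand, 10 fell, and the neighbour fell in 1 of these. Of the 8 that rose, the neighbour rose in 3. For 91 probes with the nearest neighbour on the opposite strand, 10 fell and 7 rose, and the neighbour moved the same way in 0 and 1 of these. The correlation of log2 changes across these pairs was 0.14 (Pearson) on the same strand and 0.10 on the opposite strand. A neighbour could be the RefSeq probe of the same gene, as Tceb1, Sgsm3, Rpl7a and Rpl10 were among the same-strand falls. It could also be the gene a pseudogene is named for, as Tpt1 was for one of its pseudogenes. The counts and correlations therefore mix such pairs with pairs of separate genes. D830025C05Rik rose by 0.51 beside Letm2, 5316 bases away on the opposite strand, which rose by 0.50 (limma adjusted p = 0.0388).

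By chromosome, the X chromosome held the most tested probes and the highest share of calls. Of its 138 Ensembl-only probes 33 fell and 11 rose, 31.9% called, while 13.8% of all 1041 tested probes on X were called. Gm7189, Gm14504, the proteasome subunit beta type 6 pseudogene and Gm1947 (-0.96, SE 0.10, limma adjusted p = 0.0089) are falls on X, and proteolipid protein 2, Gm5385 (0.61) and Gm4993 (0.59) are rises. Chromosomes 14 and 6 followed with 29.7% and 27.3% called, beside 12.43% and 13.96% of all their tested probes. On chromosome 12, 2 of 33 were called, on chromosome 9, 2 of 32 and on chromosome 13, 3 of 38, beside 11.3%, 10.9% and 12.6% of all their probes. The differences between chromosomes were not tested.

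**Figure D4:**
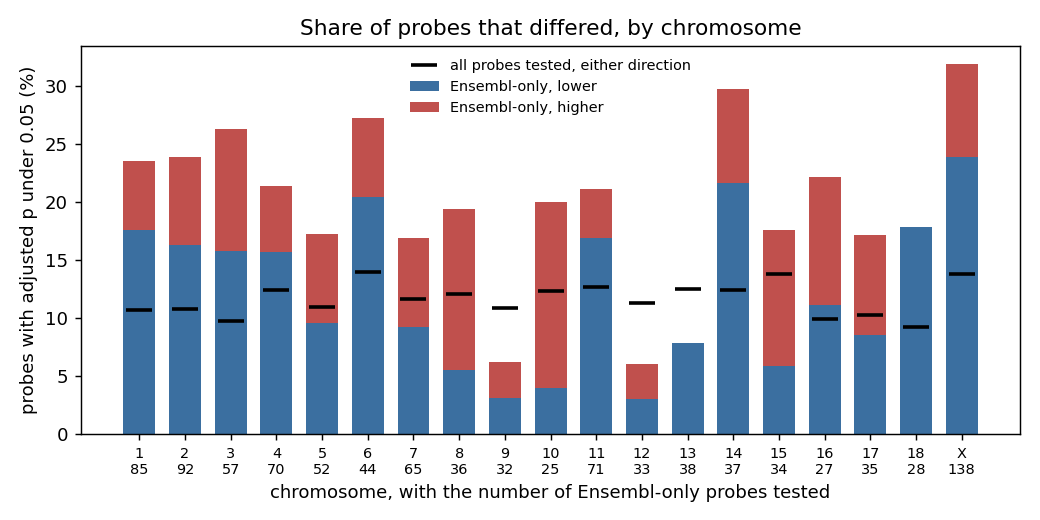
Share of Ensembl-only probes with an adjusted p under 0.05 (vertical axis, percent) by chromosome (horizontal axis, with the number tested), for chromosomes with 20 or more, lower in blue and higher in red. Black dashes give the share of all tested probes of the chromosome. The bar of X reaches 31.9% with its dash at 13.8%, and the bars of chromosomes 9, 12 and 13 lie below their dashes.

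The base content and the design series of the probes moved with the changes. The log2 change had a Spearman correlation with the G and C content of the probe of 0.21 over the 1027 Ensembl-only probes and of 0.21 over all 30930, a description across probes of the same arrays. The median G and C content was 45% for falls, for rises and for probes not called. The median T content was 26.7% for falls, 25% for those not called and 21.7% for rises. The share that fell was higher among Ensembl-only probes than among other probes in each of the 5 ranges of G and C content, from 10.5% against 8.71% between 20% and 35% to 20.2% against 3.63% between 45% and 50%. Of the Ensembl-only probes whose identifier begins with A_66, 12.4% fell by at least 2-fold, beside 0.736% of other probes of that series. In series A_52 the shares were 9.43% and 0.696%, and in series A_55, the largest, 1.80% and 0.898%. In series A_51, 0 of 40 Ensembl-only probes fell by at least 2-fold, beside 0.532% of the others. The part of probe design in the falls was not tested.

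**Figure D5:**
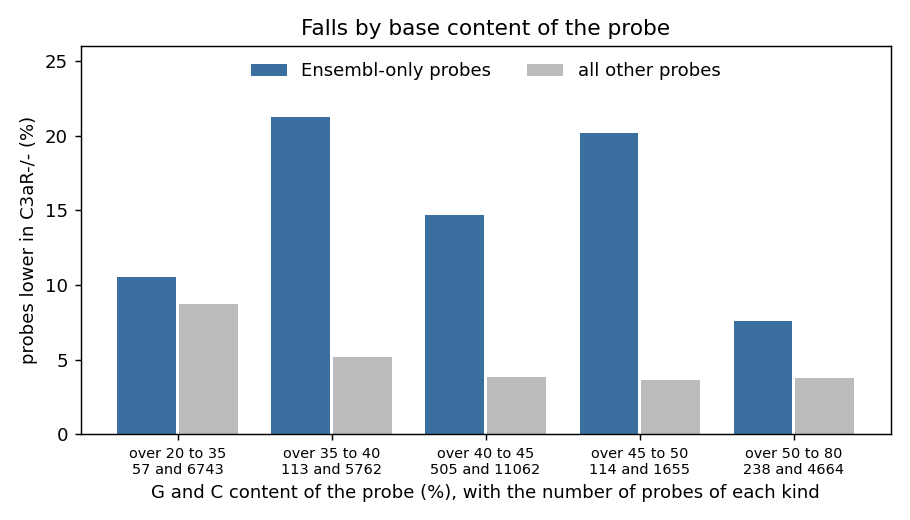
Share of tested probes that fell in C3aR-/- cortex (vertical axis, percent) by the G and C content of the probe (horizontal axis, percent, with the number of Ensembl-only and other probes), blue for Ensembl-only probes and grey for all other probes. The blue bar is the taller one in each of the 5 ranges, and the gap is widest between 45% and 50%, at 20.2% against 3.63%.

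None of the brightest Ensembl-only probes passed the threshold, a count too small to set against the background of 11.7%. The 8 with the highest signal, among them Gm3809, Gm13340, Gm14111 and ribosomal protein S12-like 2, had log2 changes between -0.01 and 0.22, and 0 of 8 had a limma adjusted p under 0.05. Gm14111 came nearest, with levels of 7.01, 6.98 and 6.91 in WT and of 7.24, 7.14 and 7.19 in C3aR-/- cortex, a log2 change of 0.22 (SE 0.06, limma adjusted p = 0.0799). The array files call Gm14111 a predicted gene, and RefSeq lists it as a pseudogene. The genotypes of Gm14111 did not overlap, yet the difference missed the threshold. Its probe matched a RefSeq coding probe of Gapdh at 53 of 59 aligned bases. The 2 probes of Gm5507 (53 of 58 and 46 of 54) and that of Gm12182 (45 of 50), also among the 8, matched Gapdh probes too. The part of Gapdh RNA in these signals was not tested.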

How the data were processed

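RNA from 3 WT and 3 C3aR-/- kidney cortices was measured on one-colour arrays. Per the file headers, Agilent Feature Extraction 10.7.1.1 gave each spot a background-subtracted intensity and flags. The authors also deposited a table of log2 values, which served as an alternative. Its centring was not stated. Coordinates are those of the files (mm9).

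Spots marked as outliers and control spots were left out, log2 intensity was set relative to each array's 75th percentile, and spots of a probe were averaged. Genotypes were compared per probe with limma 3.58.1 (lmFit, eBayes, two-sided, R 4.3.3) and Benjamini-Hochberg adjustment over all 30930 probes, with a threshold of 0.05 for a call. The number of arrays limits the precision. On simulated data for these 30930 probes 26% of the probes changed by 0.5 on the log2 scale were recovered, 66% at a size of 1, 88% at 2 and 96% at 3, with 4.17% false calls. The simulation changed a far smaller share of probes than was called here, so recovery in the real data can differ. Probe sequences were compared with blastn 2.17.0 (plus strand, word size 11). The members, classes, marker lists and the naming rule were chosen with earlier results of these data known. Named probes are up to 12 rises and 12 falls largest in log2 change among those called on all 6 arrays without overlap, up to 6 in each direction among those dim in 1 genotype, the 8 brightest, up to 3 of each class by p and up to 3 in each direction just outside the filter. The pairs shown, and other probes named from them, were chosen after their values were seen. Alternatives were quantile and median scaling, normexp correction, the deposited log2 table, other filters, a replicate block, other priors, kept outlier spots, the brightest probe per name and each array left out.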

Additional observations from a re-analysis of the deposited data

How the results depend on the processing

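Counts of Ensembl-only probes moved by more than 1.5 times as follows. With no filter on dim probes 12 rose and 83 fell, and 927 probes of all were called in place of 3612. With a replicate block 3 rose, 69 fell and 594 of all were called. The replicate numbers did not pair the samples: same-numbered deviations correlated at 0.04, 0.01 and -0.06 over all probes. With a trended, robust prior 128 rose. With normexp correction, which added an offset of 50 to each intensity, 20 differed by at least 2-fold, in place of 55. Leaving out each array in turn gave 4 to 26 rises, 69 to 121 falls, 42 to 56 differences of at least 2-fold and 649 to 1894 calls over all probes, with the lowest counts without WT replicate 2 or C3aR-/- replicate 3. By less than 1.5 times, but with another balance of directions, median centring called 2559 rises and 1251 falls over all probes, in place of 1913 and 1699, and 88 and 127 of Ensembl-only probes. Of the 45 named probes that were called, 24 stayed called with each array left out and 21 under every setting. None of these changed sign. The cause of these changes was not tested.

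The sign turned only in 8 named probes that were never called. With quantile normalization and with the deposited log2 table, the log2 change was -0.024 and -0.044 for Gm3809, -0.013 and -0.046 for Gm13340, -0.13 and -0.12 for Gm20091, -0.038 and -0.063 for Gm12182, -0.0412 and -0.0433 for Gm9238, and -0.00497 and -0.00588 and -0.0095 and -0.035 for the 2 probes of Gm5507. With an array left out it ranged from -0.0157 to 0.0270 for Gm20091, from -0.0182 to 0.0493 for Gm9238 and from -0.0670 to 0.0203 for ribosomal protein S12-like 2, which came to 0.0347 with median centring.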
